A study of Mus musculus with 12 samples.

Results

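The genes described are Keap1, Nfe2l2 (which encodes NRF2) and 8 NRF2 target genes commonly read as a response to electrophiles: Hmox1, Nqo1, Txnrd1, Gclc, Gclm, Slc7a11, Srxn1 and Osgin1. They were chosen as a list of symbols, and all 10 were found among the 32285 genes of the count table and among the 14113 genes with enough counts to be tested. RNA was sequenced from wild-type (WT) mouse bone marrow-derived macrophages, which are macrophages differentiated in culture from marrow precursors. The treated groups received 1 of 3 acids at 5 mM, added from a 50 mM stock in RPMI. Itaconic acid is IA, malonic acid is MA and methylsuccinic acid is MetSA in what follows, and the control cells (M) received medium alone. Exposure lasted 16 h in all groups, no further stimulus is named, and each group held 3 biological replicates, 12 libraries in all. The sources used here do not say whether replicates came from separate animals, so p-values measure the spread between these cultures.

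NRF2 is a transcription factor that is made all the time and normally destroyed all the time. KEAP1, an adaptor of the CUL3 ubiquitin ligase, binds NRF2 and marks it for degradation, and electrophiles that react with KEAP1 cysteines stop this, so that NRF2 builds up. NRF2 then pairs with small MAF proteins on antioxidant response elements, the sites that BACH1, a repressor sensitive to heme, occupies otherwise. Because this control acts on the NRF2 protein, the Nfe2l2 transcript is not a measure of NRF2 activity, and the target transcripts are the usual readout. Itaconate, a metabolite of activated macrophages, has an electron-poor double bond, and it and its cell-permeable esters have been reported to modify KEAP1 cysteines. Methylsuccinic acid has the carbon skeleton of itaconic acid with that bond saturated, and malonic acid is a shorter dicarboxylic acid known to inhibit succinate dehydrogenase.

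The promoters of 4 of the target genes are shown because their transcripts take 3 different courses in the data below, and because their windows hold the motifs that link such genes to NRF2 and to ATF4. Sequences are from RefSeq on GRCm38.p6, from 250 bases before to 50 bases after a start site, 5′ to 3′ on the gene's strand. Capitals mark matches, on either strand, to the antioxidant response element core TGACNNNGC, to the AP-1 and Maf type site TGANTCA, or to the C/EBP-ATF composite site TGATGNAA. The windows are chr10:82858956-82859255 on the plus strand for the second of 3 start sites of Txnrd1, chr3:122245307-122245606 on the plus strand for Gclm, chr3:50443564-50443863 on the minus strand for Slc7a11 and chr2:152105274-152105573 on the plus strand for Srxn1.
Txnrd1: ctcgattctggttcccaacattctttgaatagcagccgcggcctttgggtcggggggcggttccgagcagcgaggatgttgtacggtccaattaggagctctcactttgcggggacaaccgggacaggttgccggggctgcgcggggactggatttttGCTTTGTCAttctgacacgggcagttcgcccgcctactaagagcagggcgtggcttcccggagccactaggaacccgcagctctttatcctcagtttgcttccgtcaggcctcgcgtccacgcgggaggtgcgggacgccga
Gclm: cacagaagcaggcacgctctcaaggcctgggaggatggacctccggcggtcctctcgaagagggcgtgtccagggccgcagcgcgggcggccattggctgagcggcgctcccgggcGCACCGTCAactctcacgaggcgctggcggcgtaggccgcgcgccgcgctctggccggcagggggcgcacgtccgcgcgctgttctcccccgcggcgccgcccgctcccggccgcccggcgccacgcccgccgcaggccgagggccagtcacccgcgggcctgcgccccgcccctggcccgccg
Slc7a11: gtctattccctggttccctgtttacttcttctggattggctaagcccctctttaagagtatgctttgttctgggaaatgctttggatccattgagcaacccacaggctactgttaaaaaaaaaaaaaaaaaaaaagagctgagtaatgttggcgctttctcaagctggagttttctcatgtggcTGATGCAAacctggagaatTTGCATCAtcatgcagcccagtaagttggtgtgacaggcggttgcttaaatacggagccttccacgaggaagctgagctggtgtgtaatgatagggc
Srxn1: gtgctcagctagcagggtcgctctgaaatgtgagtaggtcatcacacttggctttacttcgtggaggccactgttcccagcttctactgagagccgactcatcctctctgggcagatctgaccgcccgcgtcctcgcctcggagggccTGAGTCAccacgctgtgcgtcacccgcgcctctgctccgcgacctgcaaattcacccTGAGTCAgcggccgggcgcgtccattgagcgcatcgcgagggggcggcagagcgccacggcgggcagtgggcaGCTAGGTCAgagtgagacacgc

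The table held promoters for 8 of the 10 genes, at 10 start sites, and gave none for Hmox1 and Gclc. The response element core was found in 4 of these genes, with its first base at -92 from the second start of Txnrd1, at -134 in Gclm, at 29 in Srxn1 and at -240 in Nfe2l2. Of all 32851 promoters of this length 12.4% hold that core. Srxn1 also had the AP-1 and Maf type site at -102 and -45, and Osgin1 had it at -97, a motif found in 7.81% of promoters. Slc7a11 had the composite site at -66 and -47, in opposite orientations, and 3.97% of promoters hold it. The matches did not overlap each other, and Keap1 and Nqo1 had none in these windows. A match is a description of the letters and not a binding site, and NRF2 sites of several such genes are known outside windows of this length.

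**Figure D1:**
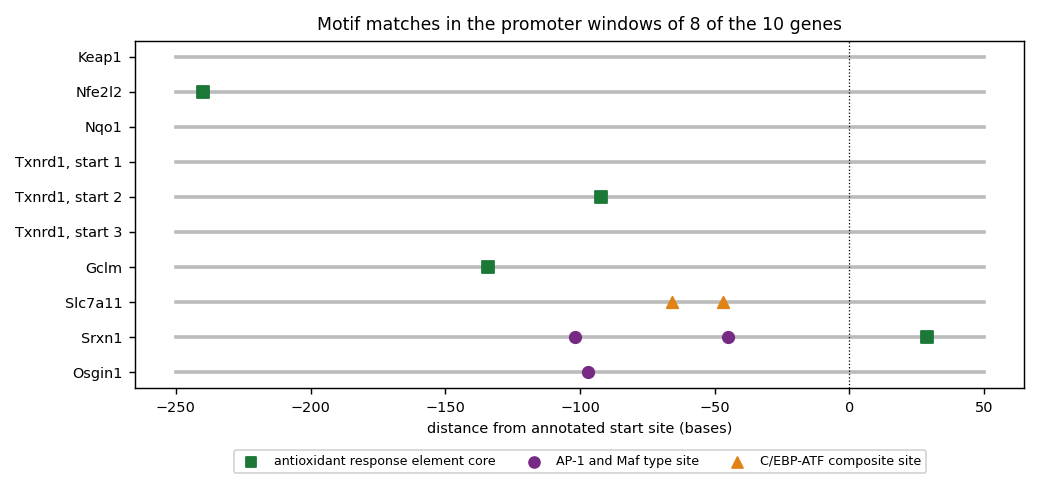
Positions of motif matches in the 10 promoter windows of 8 genes, on an axis of bases from the start site. Symbols stand for the 3 motifs, and Srxn1 is the gene with matches to more than 1 of them.

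Library totals ran from 46892488 to 54252486 counts. All 9 macrophage markers were present, from Cd86 at a mean of 50.6 CPM (counts scaled to library size) to Lyz2 at 17723 CPM. Of the 2 NK cell genes, Ncr1 was at 0 in all libraries and Klrb1c averaged 0.0928 CPM. The neutrophil gene Ngp averaged 30.2 CPM and the stromal gene Col1a1 averaged 8.57 CPM. On the first principal component of log2 CPM, which held 42.2% of the variance, the IA libraries had a median of 42.1 and a highest value of 45.0, the MA libraries lay at -43.0 to -39.5 and the M libraries at -31.2 to -23.3. MetSA replicates 1 and 2 lay at 30.1 and 25.8. MetSA replicate 3 stood apart at 15.3, shifted toward M but still nearer to the other MetSA libraries. Log2 fold changes that rest on MetSA are therefore followed by their values without it, and correlations are not. CPM are scaled by TMM, which sets most genes equal between libraries, and genes were called at an adjusted p under 0.05 in edgeR's quasi-likelihood test, Benjamini-Hochberg adjusted over all genes tested, the source of every p below unless said otherwise. With upper-quartile scaling in place of TMM the share of called genes that were higher was 34.8% and not 50.9% in IA against M, 42.2% and not 59.7% in MetSA against M, 54.2% and not 64.8% in IA against MetSA, 37.5% and not 51.5% in IA against MA, and 54.5% and not 44.1% in MA against MetSA.

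Before any comparison, the 10 genes differed widely in level. Per kilobase of annotated exon (RPKM, from the CPM above), Hmox1 was the most abundant transcript in M at 204 ± 14.3 RPKM, followed by Nfe2l2 at 78.6 ± 2.79 RPKM (SD, n = 3). Srxn1 stood at 42 ± 0.999 RPKM and Txnrd1 at 38.1 ± 3.47 RPKM, whose ranges of error overlap. Gclm at 11.8 ± 0.202 RPKM and Gclc at 11.4 ± 0.497 RPKM, the subunits of one enzyme, were alike within their spread, and Keap1 was at 8.72 ± 0.525 RPKM. Osgin1 at 5.21 ± 0.27 RPKM, Nqo1 at 1.31 ± 0.198 RPKM and Slc7a11 at 0.129 ± 0.00631 RPKM were the lowest. Nqo1 and Slc7a11 rested on 61 to 139 and 59 to 269 counts per library, against 571 or more for each of the other genes, so their estimates carry the widest intervals.

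**Figure D2:**
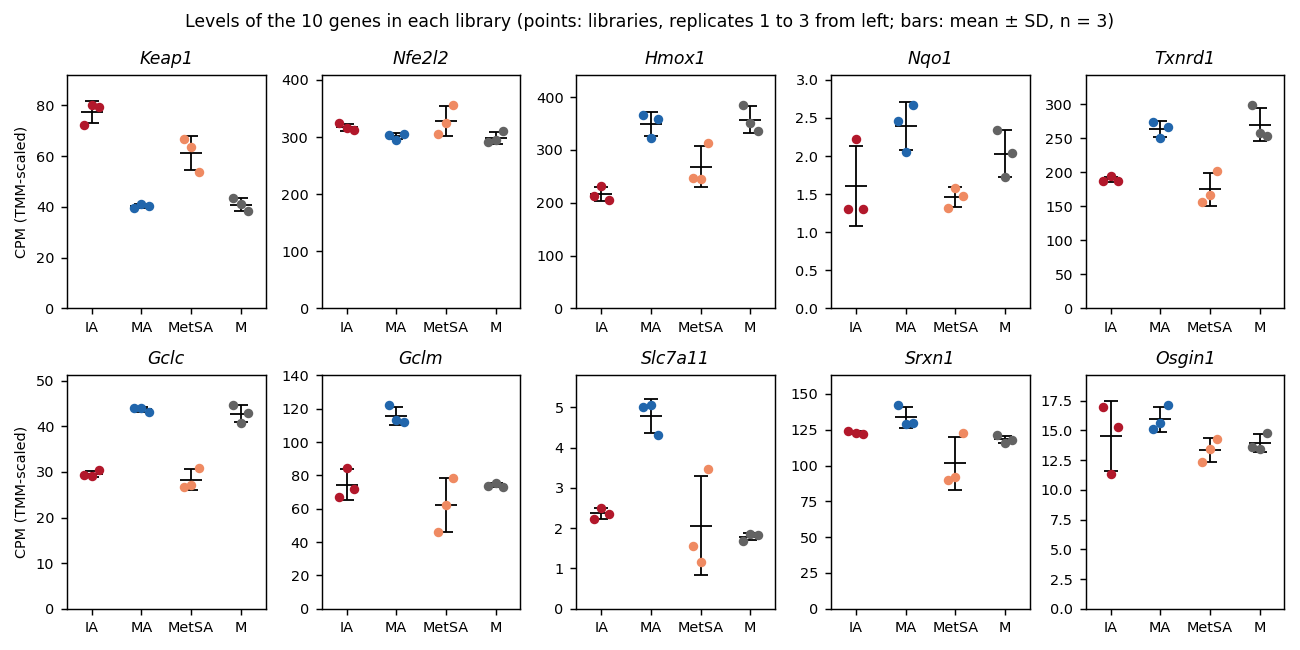
TMM-scaled CPM of each of the 10 genes in the 12 libraries, 1 panel per gene with its own linear axis, with groups in the order IA, MA, MetSA, M; points are libraries and bars are group means with SD. Keap1 is highest in IA and Gclm and Slc7a11 are highest in MA.

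Keap1, the sensor, was the member that rose most after itaconic acid, and NRF2's own transcript was not called. Keap1 was at 72.2, 80.1 and 79.3 CPM in IA, at 39.7, 41.1 and 40.2 CPM in MA, at 66.7, 63.4 and 53.7 CPM in MetSA, and at 43.3, 41.1 and 38.4 CPM in M. All IA and all MetSA libraries lay above all M libraries, and the MA libraries lay within the M range of 38.4 to 43.3 CPM. The log2 fold change was 0.92 in IA against M (SE 0.08, adjusted p = 1.88e-08), a 1.89-fold difference, and 0.58 in MetSA against M (SE 0.08, adjusted p = 1.31e-05), or 0.67 without MetSA replicate 3. In MA against M it was -0.02 (95% interval -0.18 to 0.14). Keap1 lies on chromosome 9 from 21229730 to 21239361 (mm10, minus strand), and 510 bases of its exons overlap the antisense gene Gm16754, which cannot be told apart from it without strand information. In bulk RNA, fewer cells of a type and less RNA per cell cannot be told apart.

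Some marker lists of other cell types also differed between the groups. The summed level of the endothelial list, Pecam1 and Cdh5, both of them detected, was 12.5 to 13.9 CPM in IA, 4.23 to 6.36 CPM in MA, 14 to 16.1 CPM in MetSA and 3.87 to 5.69 CPM in M. For the T cell list, in which 1 of 5 genes, Cd4, reached 1 CPM, the sums were 21.1 to 30.3 CPM in IA, 9.72 to 10.4 CPM in MA, 20.9 to 27.1 CPM in MetSA and 12.1 to 14.5 CPM in M. The T cell genes Cd3e, Cd3d, Cd8a and Trac had at most 4 counts in any library, so these sums are nearly those of Cd4 alone. The dendritic cell list, in which 1 of 6 genes, Xcr1, averaged 1 CPM or more over the 12 libraries, summed to 7.22 to 9.3 CPM in IA, 2.85 to 3.65 CPM in MA, 3.68 to 5.6 CPM in MetSA and 1.98 to 3.42 CPM in M. Xcr1 alone averaged 4.86 CPM in IA, 0.443 CPM in MA, 1.97 CPM in MetSA and 0.223 CPM in M. The other genes averaged at most 0.978 CPM in IA and 0.709 CPM in M, and Siglech averaged 1.27 CPM in MA. Flt3 was not higher in IA (0.399 CPM, against 0.489 CPM in M). The endothelial sums were higher in MetSA than in IA. The neutrophil list, at 45.1 to 69.8 CPM in IA and 44.2 to 74.1 CPM in M, and the stromal list, at 8.25 to 13.1 CPM in IA and 6.89 to 22.7 CPM in M, overlapped between these groups. The part of these cell types in the result was not tested.

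Nfe2l2, on chromosome 2 from 75675513 to 75704641 (minus strand), was at 324, 316 and 312 CPM in IA, at 304, 295 and 306 CPM in MA, at 305, 324 and 356 CPM in MetSA, and at 291, 294 and 311 CPM in M. The groups nearly coincide, though the IA values lay just above the M values. The log2 fold change was 0.09 in IA against M (95% interval -0.04 to 0.21), 0.02 in MA against M (-0.11 to 0.14) and 0.14 in MetSA against M (0.01 to 0.26, adjusted p = 0.115). For MetSA it was 0.08 without MetSA replicate 3 (adjusted p = 0.398) and 0.19 without MetSA replicate 1 (adjusted p = 0.0491), the highest and the lowest library of that group. In a joint test of any difference among the 4 groups, 7 of the 10 genes were called, against 43.8% of all genes tested. Nfe2l2 (adjusted p = 0.183), Nqo1 (adjusted p = 0.0714) and Osgin1 (adjusted p = 0.293) were not among them.

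**Figure D3:**
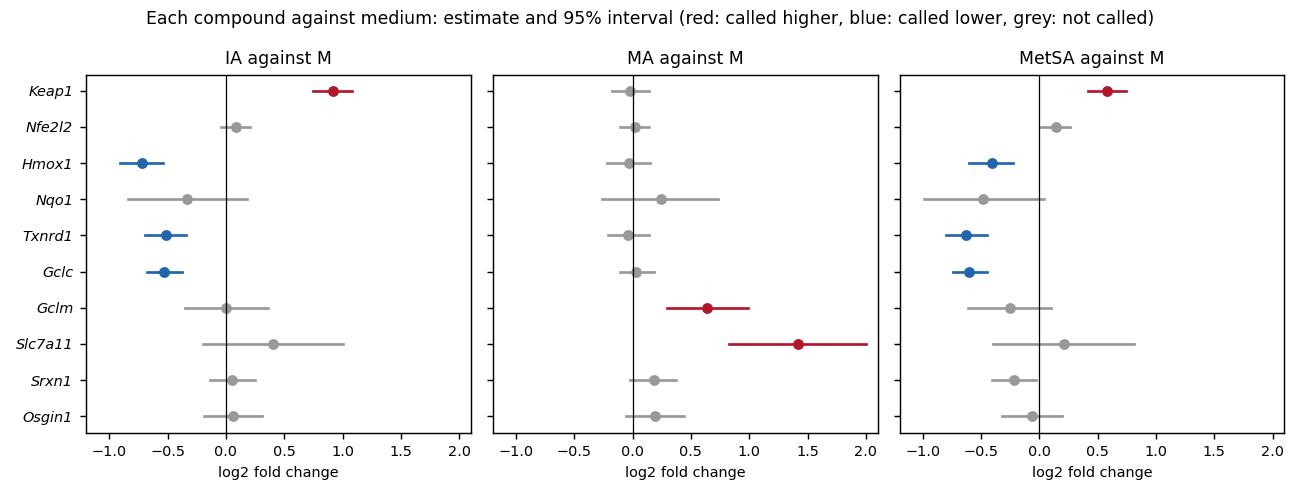
Estimated log2 fold change with its 95% interval for the 10 genes, in a panel each for IA, MA and MetSA against M; red is called higher, blue called lower and grey not called. Keap1 is at 0.92 in IA against M and at 0.58 in MetSA against M, and Slc7a11 is at 1.42 in MA against M.

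Set against M as a group, the 10 genes did not move together under any of the 3 acids. In IA against M 1 gene was higher and 3 were lower, where 17.9% and 17.3% of all genes tested were called higher and lower (35.2% in either direction), and the median of the 10 was 0.03 against -0.03 over all genes. For MA against M the numbers were 2 higher and 0 lower, with 10.1% of all genes called in each direction (20.3% in all) and medians of 0.10 and -0.02. MetSA against M gave 1 higher and 3 lower, with 12.6% and 8.53% of all genes (21.2% in all), and medians of -0.23 and -0.01. The 3 values of each group did not overlap for 7 of the genes in IA against M, 4 in MA against M and 5 in MetSA against M, where this held for 47.7%, 35.6% and 33.7% of all genes. The 3 comparisons share the same M libraries.

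Among 19 other regulators of the pathway, 7 rose and 3 fell in IA against M, 2 rose and 2 fell in MA against M, and 6 rose and 2 fell in MetSA against M. These are 52.6%, 21.1% and 42.1% of the list, where 35.2%, 20.3% and 21.2% of all genes were called. In MetSA 7 were higher and 2 lower without MetSA replicate 3. Bach1, the heme-sensitive repressor of Hmox1, averaged 342 ± 37.7 CPM in IA and 221 ± 15.3 CPM in M, a difference of 0.63 on the log2 scale (SE 0.09, adjusted p = 5.56e-05). Its level was 300 ± 40.5 CPM in MetSA (0.44 against M, adjusted p = 0.00243, or 0.55 without replicate 3) and 222 ± 5.12 CPM in MA (0.00, adjusted p = 0.994). Mafk, one of the small MAF proteins that partner both NRF2 and BACH1, averaged 75.1 ± 9.48 CPM in IA, 35.7 ± 1.76 CPM in MA, 51.8 ± 7.29 CPM in MetSA and 36.4 ± 2.8 CPM in M (SD, n = 3). It rose by 1.04 in IA (SE 0.10, adjusted p = 6.06e-07) and by 0.51 in MetSA (adjusted p = 0.00176, or 0.60 without replicate 3), and was at -0.03 in MA. The other small MAF genes did not follow it. Maff, low at 1 ± 0.291 CPM in IA and 2.53 ± 0.201 CPM in M, fell by 1.33 in IA (adjusted p = 0.000486) and was not called in MetSA (-0.52, or -0.49 without replicate 3) or MA (-0.02). Mafg was at -0.17 in IA (adjusted p = 0.0407) and -0.19 in MetSA (adjusted p = 0.0345, or -0.22 without replicate 3), calls that were lost in the fit of the 2 compared groups (adjusted p = 0.0889 in IA and 0.0801 in MetSA) and without M replicate 1 (0.137 in both) or M replicate 3 (0.0723 in IA and 0.06 in MetSA), among other omissions, and it was at 0.06 in MA.

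Trim21, a ubiquitin ligase and cytosolic antibody receptor that also acts on the autophagy receptor p62, rose by 1.47 in IA (106 ± 5.86 CPM, against 38.3 ± 3.14 CPM in M, adjusted p = 2.65e-10) and by 1.06 in MetSA (79.8 ± 10.1 CPM, adjusted p = 5.5e-08, or 1.11 without replicate 3), and fell by 0.44 in MA (28.3 ± 2.3 CPM, adjusted p = 0.00143). The large MAF factor Maf moved likewise, by 0.38 in IA (adjusted p = 0.000102), by 0.56 in MetSA (adjusted p = 2.53e-06, or 0.58 without replicate 3) and by -0.31 in MA (adjusted p = 0.00161). Cul3, the scaffold of the KEAP1 ligase, was at 0.19 in IA (130 ± 2.76 CPM, against 114 ± 6.41 CPM in M, adjusted p = 0.0236), a call lost under upper-quartile scaling (0.098, adjusted p = 0.218), without a filter on low counts (adjusted p = 0.0521), and without IA replicate 2 (0.0585), M replicate 1 (0.0952) or M replicate 3 (0.0704). In MA against M, Bach2, a relative of Bach1, rose by 0.55 (adjusted p = 0.00377). The autophagy receptor Nbr1 was at 0.17 (adjusted p = 0.0468), a call lost under upper-quartile scaling (0.0617), without a filter (0.1), in the fit of the 2 groups (0.0544) and without any 1 of IA replicates 1 and 2, MA replicates 1 and 2, MetSA replicate 2 or M replicates 2 and 3 (highest adjusted p = 0.215), which left 1 gene of the list higher. Sqstm1, which encodes p62, a target of NRF2 that in turn binds KEAP1, was at 0.01, -0.00 and -0.11 in IA, MA and MetSA against M, with 13.7% of its 100-base stretches shared with other genes, and Nfe2l1, a relative of Nfe2l2, was at 0.10, 0.07 and 0.06, with none of these called.

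**Figure D4:**
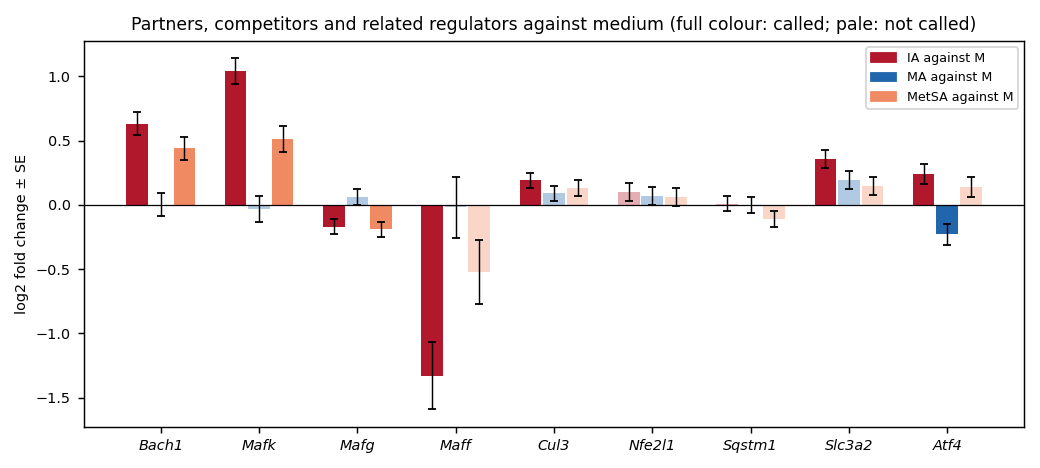
Bars give the log2 fold change of 9 regulators and partners of the pathway in IA, MA and MetSA against M, in that order from the left, with error bars of 1 SE; full colour marks called values and pale colour values not called. Mafk is at 1.04 in IA and 0.51 in MetSA, Bach1 at 0.63 and 0.44, and both bars of MA are near 0.

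Hmox1, the inducible heme oxygenase that turns heme into biliverdin, carbon monoxide and iron, fell in IA and MetSA. It was at 212, 231 and 205 CPM in IA, at 366, 323 and 358 CPM in MA, at 247, 245 and 314 CPM in MetSA, and at 385, 351 and 336 CPM in M. Every IA and MetSA library lay below every M library, the IA libraries were the lowest, and the MA and M libraries overlapped. The log2 fold change was -0.72 in IA against M (SE 0.09, adjusted p = 4.82e-06), which is 0.606 of the M level, and -0.41 in MetSA against M (SE 0.09, adjusted p = 0.00239), or -0.54 without MetSA replicate 3. For MA against M it was -0.03 (95% interval -0.22 to 0.15). Hmox1 lies on chromosome 8 from 75093621 to 75100589 (plus strand).

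Of 24 other genes of heme and iron handling, 4 rose and 4 fell in IA against M, 4 rose and 7 fell in MA against M, and 1 rose and 3 fell in MetSA against M. These are 33.3%, 45.8% and 16.7% of the list, where 35.2%, 20.3% and 21.2% of all genes were called. Hmox2, the constitutive heme oxygenase, rose by 0.71 in IA (163 ± 10.6 CPM, against 100 ± 3.29 CPM in M, adjusted p = 8.85e-08) and by 0.68 in MetSA (160 ± 12.7 CPM, adjusted p = 3.31e-07, or 0.70 without replicate 3), opposite to Hmox1. Its count is uncertain, with 32.1% of its 100-base stretches shared with other annotated genes and 892 exon bases antisense to Cdip1. Slc48a1, which carries heme out of the phagolysosome, fell by 0.53 in IA (adjusted p = 7.63e-05) and by 0.36 in MetSA (adjusted p = 0.00475), where the value was -0.50 without replicate 3. Fth1, the ferritin heavy chain that stores iron, rose by 0.40 in IA (6400 ± 156 CPM, against 4843 ± 512 CPM in M, adjusted p = 8.4e-05) and by 0.65 in MA (7579 ± 113 CPM, adjusted p = 4.99e-07). The iron exporter Slc40a1 fell under each acid, by 0.38 in IA, 0.77 in MA and 0.36 in MetSA (adjusted p = 0.00279, 6.12e-06 and 0.0082), with -0.50 in MetSA without replicate 3, and Cd163, the hemoglobin receptor, fell by 1.07 in IA (adjusted p = 0.00142) and fell by 1.73 in MA (adjusted p = 9.26e-05). The iron importer Slc11a2 fell by 0.41 in MA (adjusted p = 0.000126). Aco1, an iron-regulated RNA binding protein, was at -0.22 in MetSA (adjusted p = 0.0405, or -0.31 without replicate 3), a call lost in the fit of the 2 groups (0.103) and without any 1 of MetSA replicates 1 and 2, M replicates 1 and 2, MA replicate 3 or an IA library. Upper-quartile scaling gave 8 lower genes in IA against M and 5 lower in MetSA against M. It also moved the median over all genes, from -0.031 to -0.119 in IA against M and from -0.012 to -0.074 in MetSA against M. In MetSA against M 4 genes were higher without a filter and 3 with DESeq2 or the replicate block. There 2 were higher with adjustment over all 6 comparisons or without MetSA replicate 3, IA replicate 3, MA replicate 1 or M replicate 3. The counts of all genes called higher in these repeats are not given here.

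Txnrd1, the cytosolic thioredoxin reductase that keeps thioredoxin active with electrons from NADPH, fell in IA and MetSA. It was at 187, 194 and 188 CPM in IA, at 274, 251 and 267 CPM in MA, at 156, 167 and 202 CPM in MetSA, and at 299, 258 and 254 CPM in M. The IA and MetSA values lay below all MA and M values, with the highest MetSA value in replicate 3. The log2 fold change was -0.51 in IA against M (SE 0.08, adjusted p = 8.73e-05), -0.63 in MetSA against M (SE 0.08, adjusted p = 1.87e-05), or -0.74 without MetSA replicate 3, and -0.04 in MA against M (95% interval -0.21 to 0.14). Txnrd1 lies on chromosome 10 from 82833951 to 82897712 (plus strand), and counts per gene do not separate the start site shown above from the other two.

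Srxn1 encodes sulfiredoxin, which repairs overoxidised peroxiredoxins. It was at 124, 123 and 122 CPM in IA, at 142, 129 and 130 CPM in MA, at 90.2, 91.7 and 123 CPM in MetSA, and at 121, 116 and 118 CPM in M. MetSA replicates 1 and 2 were the lowest of the 12 libraries, while MetSA replicate 3 was above all M libraries. With all libraries it was not called in IA against M (0.05, 95% interval -0.14 to 0.25), MA against M (0.18, -0.02 to 0.37) or MetSA against M (-0.22, -0.41 to -0.03, adjusted p = 0.102). Without MetSA replicate 3 it was called lower in MetSA (-0.38, adjusted p = 0.000101) and higher in MA (0.18, adjusted p = 0.0238). It was also called lower in MetSA with upper-quartile scaling (-0.28, adjusted p = 0.0432) and without a filter on low counts (-0.22, adjusted p = 0.0268). The fit of the 2 compared groups called it higher in MA (0.19, adjusted p = 0.0496). Its 3 motif matches were the most of any window, and it lies on chromosome 2 from 152105516 to 152111376 (plus strand).

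Of 17 other genes of the thioredoxin system, 3 rose and 3 fell in IA against M, 3 rose and 2 fell in MA against M, and 3 rose and 0 fell in MetSA against M. These are 35.3%, 29.4% and 17.6% of the list, where 35.2%, 20.3% and 21.2% of all genes were called. Prdx5, a peroxiredoxin of mitochondria, peroxisomes and cytosol, rose under each acid, by 0.79 in IA (207 ± 6.3 CPM), 0.97 in MA (234 ± 14.1 CPM) and 0.70 in MetSA (194 ± 21.3 CPM), against 120 ± 9.9 CPM in M (adjusted p = 1.63e-07, 1.73e-08 and 1.71e-06), with 0.78 in MetSA without replicate 3. Txnip, which binds and inhibits thioredoxin, rose by 0.58 in IA (adjusted p = 4.77e-06) and 0.43 in MetSA (adjusted p = 0.000236, or 0.35 without replicate 3). Both are uncertain, with 12.3% of the 100-base stretches of Prdx5 and 12.1% of those of Txnip shared with other genes. Sesn2, a stress-induced sestrin, rose by 0.60 in IA, 0.28 in MA and 0.54 in MetSA (adjusted p = 9.53e-06, 0.0215 and 6.47e-05), or 0.61 in MetSA without replicate 3, of which the MA call was lost without MA replicate 2 (0.102) or M replicate 1 (0.109). Its relative Sesn1 fell by 0.33 in IA (adjusted p = 0.000811) and was at -0.25 in MA (adjusted p = 0.0133, and 0.0687 without M replicate 2), and Prdx6 rose by 0.44 in MA (adjusted p = 0.000992). In MA against M 0 genes were lower without M replicate 2, and 1 was lower without any IA library, MA replicate 1 or 2, MetSA replicate 2 or M replicate 3. Upper-quartile scaling gave 8 lower genes in IA against M and 1 in MetSA against M. The median over all genes also shifted downward under that scaling, to -0.119 and -0.074. Without MetSA replicate 3, 2 were lower in MetSA against M.

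Gclc and Gclm encode the catalytic and modifier subunits of glutamate-cysteine ligase, the first step of glutathione synthesis, and their transcripts moved differently. Gclc was at 29.3, 29.1 and 30.4 CPM in IA, at 44, 44.1 and 43.1 CPM in MA, at 26.8, 27.2 and 30.9 CPM in MetSA, and at 44.6, 40.8 and 43 CPM in M. The IA and MetSA libraries formed one low range and the MA and M libraries one high range, with no overlap between the ranges. The log2 fold change was -0.53 in IA against M (SE 0.07, adjusted p = 6.15e-06), -0.60 in MetSA against M (SE 0.07, adjusted p = 3.18e-06), or -0.66 without MetSA replicate 3, and 0.03 in MA against M (95% interval -0.11 to 0.18). Gclc lies on chromosome 9 from 77754535 to 77794485 (plus strand).

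Gclm was at 66.9, 84.7 and 71.8 CPM in IA, at 122, 113 and 112 CPM in MA, at 46.1, 62.1 and 78.6 CPM in MetSA, and at 73.8, 75.7 and 73.3 CPM in M. The MA libraries were above all others, the M libraries were tight, and the IA and MetSA libraries spread to both sides of M. It was called higher in MA against M by 0.64 on the log2 scale (SE 0.16, adjusted p = 0.0163), although the call was lost without MA replicate 1 (0.0627), M replicate 1 (0.0548) or M replicate 3 (0.064). In IA against M the value was 0.00 (95% interval -0.35 to 0.36), and in MetSA against M it was -0.25 (-0.61 to 0.10), or -0.46 and called lower without MetSA replicate 3 (adjusted p = 0.00951). It was also called lower in MetSA when low genes were kept in the fit (adjusted p = 0.00927). Gclm lies on chromosome 3 from 122245557 to 122270732 (plus strand). Its exons overlap those of Gm6061 on the same strand over 244 bases and of Gm17494 on the other strand over 296 bases, and 3.09% of its 100-base stretches are shared.

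Slc7a11, the transporter subunit of the cystine-glutamate exchanger xCT, is a target of ATF4 as well as of NRF2, and it rose under malonic acid. It was at 2.24, 2.5 and 2.36 CPM in IA, at 5.01, 5.05 and 4.31 CPM in MA, at 1.56, 1.17 and 3.47 CPM in MetSA, and at 1.69, 1.85 and 1.83 CPM in M. The MA libraries were the highest, MetSA replicate 3 alone came near them, and MetSA replicates 1 and 2 were the lowest of all. The log2 fold change in MA against M was 1.42 (SE 0.28, adjusted p = 0.00111), a 2.67-fold difference that was called without each single library (highest adjusted p = 0.00782). For IA against M it was 0.40 (95% interval -0.20 to 1.00, adjusted p = 0.304), although all IA values lay above all M values, and for MetSA against M it was 0.21 (-0.40 to 0.81), or -0.39 without MetSA replicate 3 (adjusted p = 0.235). Slc7a11 lies on chromosome 3 from 49892526 to 50443614 (minus strand).

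Of 17 tested genes of cystine uptake and glutathione use, out of 20 listed, 3 rose and 3 fell in IA against M, 2 rose and 5 fell in MA against M, and 2 rose and 3 fell in MetSA against M. These are 35.3%, 41.2% and 29.4% of the list, where 35.2%, 20.3% and 21.2% of all genes were called. Slc3a2, the heavy chain that brings Slc7a11 to the membrane, rose by 0.36 in IA (300 ± 21.7 CPM, against 234 ± 9.33 CPM in M, adjusted p = 0.000222). Its values were 0.19 in MA (adjusted p = 0.051) and 0.15 in MetSA (adjusted p = 0.103), and the MA value was called in the fit of those 2 groups (adjusted p = 0.0253), with DESeq2 (0.0349), with the replicate block (0.0174), with adjustment over all 6 comparisons (0.0446), with the stricter filter (0.0498), with halved counts (0.0481) and without any 1 of MetSA replicates 1 to 3 or IA replicates 1 and 3. The MetSA value was called with the replicate block (0.049) and was 0.17 without replicate 3 (adjusted p = 0.105). Gpx1, the main cytosolic glutathione peroxidase, fell under each acid, by 0.62 in IA, 0.49 in MA and 0.37 in MetSA (316 ± 9.32, 346 ± 23.6 and 375 ± 3.31 CPM, against 485 ± 48.2 CPM in M; adjusted p = 7.62e-07, 2.66e-05 and 0.000476). So did the glutamine transporter Slc1a5, by 1.04 in IA, 0.51 in MA and 0.80 in MetSA (adjusted p = 2.04e-08, 0.000235 and 1.36e-06). Without replicate 3 the MetSA values were -0.37 for Gpx1 and -0.89 for Slc1a5. Oplah, which opens 5-oxoproline to glutamate, rose by 0.90 in MA (adjusted p = 0.000932). The glutaredoxin Glrx5 fell by 0.61 in IA (adjusted p = 0.000202) and was at -0.34 in MetSA (adjusted p = 0.0301), lost without any MetSA library (highest adjusted p = 0.0854) or without M replicate 2 or 3. The gamma-glutamyl cleaving enzyme Ggt5 was at -0.64 in MA (adjusted p = 0.0106, and 0.0661 without MA replicate 3) and 0.58 in MetSA (adjusted p = 0.0141, and 0.056 without MetSA replicate 3). Single omissions left 1 to 3 genes higher and 2 to 5 lower in MA, with 2 lower without MA replicate 3, and 1 to 2 higher in MetSA, with 1 higher without MetSA replicate 1 or any M library.

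Targets of ATF4, the factor of the integrated stress response, were examined because Slc7a11 is one of them. Of 26 tested, out of 28 listed, 9 rose and 5 fell in IA against M, 1 rose and 7 fell in MA against M, and 7 rose and 4 fell in MetSA against M, with medians of 0.28, -0.18 and 0.04 beside -0.03, -0.02 and -0.01 over all genes. These are 53.8%, 30.8% and 42.3% of the list, where 35.2%, 20.3% and 21.2% of all genes were called, 10.1% in each direction in MA. The gene called higher in MA was Sesn2, given above. In MetSA 8 were higher and 4 lower without MetSA replicate 3. Atf4 itself was at 0.24 in IA (99.4 ± 12.8 CPM, against 83.9 ± 5.28 CPM in M, adjusted p = 0.0196), a call lost without IA replicate 1 (0.175), M replicate 1 (0.0645) or M replicate 2 (0.0834) and with upper-quartile scaling (0.137). It was at -0.23 in MA (adjusted p = 0.0474), lost in 9 of the 12 omissions of a library (highest adjusted p = 0.19), and at 0.14 in MetSA (adjusted p = 0.226), or 0.12 without replicate 3. Mthfd2, a mitochondrial folate enzyme, rose by 0.87 in IA (adjusted p = 6.51e-07) and fell by 0.48 in MA (adjusted p = 0.00131). Nupr1, a stress-induced chromatin protein, rose by 1.41 in IA (adjusted p = 7.96e-06), and Ddit3, the factor CHOP, by 0.83 in MetSA (adjusted p = 0.000894, or 1.00 without replicate 3). The serine synthesis enzyme Psat1 fell by 1.23 in IA (adjusted p = 1.64e-07) and 0.71 in MetSA (adjusted p = 0.000163), where the value was -0.86 without replicate 3, and Shmt2, which takes serine into folate metabolism, fell by 0.45 in MetSA (adjusted p = 0.000715), with -0.48 without replicate 3. In MA the cysteinyl-tRNA synthetase Cars fell by 0.35 (adjusted p = 0.0017), the translation repressor Eif4ebp1 by 0.39 (adjusted p = 0.00325) and the amino acid transporter Slc7a5 by 0.82 (adjusted p = 0.000733). The count higher in MA was 0 without MA replicate 2 or M replicate 1 and 2 under DESeq2 and most other repeats, and the count lower in MetSA was 2 without MetSA replicate 2 or M replicate 2.

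Nqo1, the quinone reductase often taken as the standard NRF2 readout, was barely expressed. It was at 1.3, 2.22 and 1.31 CPM in IA, at 2.46, 2.05 and 2.67 CPM in MA, at 1.32, 1.58 and 1.48 CPM in MetSA, and at 2.34, 1.72 and 2.04 CPM in M. IA replicate 2 lay with the M libraries and the other IA libraries lay below them, and all MetSA values were below all M values. None of the comparisons with M was called, with log2 fold changes of -0.33 in IA (95% interval -0.84 to 0.18), 0.24 in MA (-0.26 to 0.73) and -0.48 in MetSA (-0.99 to 0.04), or -0.49 without MetSA replicate 3. The intervals are wide at 61 to 139 counts per library. Nqo1 lies on chromosome 8 from 107388225 to 107403206 (minus strand).

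Osgin1, an oxidative stress-induced growth inhibitor gene, was at 17, 11.3 and 15.3 CPM in IA, at 15.1, 15.6 and 17.1 CPM in MA, at 12.3, 13.4 and 14.3 CPM in MetSA, and at 13.6, 13.4 and 14.8 CPM in M. The IA libraries spread over nearly the whole range of the 12. Its log2 fold changes were 0.06 in IA (95% interval -0.19 to 0.31), 0.19 in MA (-0.06 to 0.44) and -0.06 in MetSA (-0.32 to 0.19) against M, or -0.12 for MetSA without its replicate 3, and none was called. It lies on chromosome 8 from 119434124 to 119446256 (plus strand).

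A longer list of further NRF2 targets, 35 tested of 38 listed, had genes called in both directions under each acid. It held 4 genes higher and 7 lower in IA against M, 6 higher and 4 lower in MA against M, and 1 higher and 6 lower in MetSA against M, with medians of -0.07, 0.06 and -0.10 beside -0.03, -0.02 and -0.01 over all genes. These are 31.4%, 28.6% and 20% of the list, where 35.2%, 20.3% and 21.2% of all genes were called. The membrane glutathione transferase Mgst1 rose by 1.10 in MA (115 ± 7.96 CPM, against 53.3 ± 6.87 CPM in M, adjusted p = 7.19e-06) and by 0.48 in MetSA (adjusted p = 0.00805, or 0.35 without replicate 3). The glutathione conjugate pump Abcc1 fell by 0.35 in IA (184 ± 10.4 CPM, against 235 ± 20.5 CPM in M, adjusted p = 0.000701) and by 0.41 in MetSA (177 ± 8.99 CPM, adjusted p = 0.000311), where the value was -0.45 without replicate 3. The aldose reductase relative Akr1b8 fell by 0.53 in MA (adjusted p = 0.000927). Fth1, Slc40a1 and Slc48a1, described above, are also on this list. Leaving out MetSA replicate 3 took the genes lower in MetSA against M to 14 and those lower in MA against M to 9. Over all genes that omission gave 1224 lower in MetSA against M, where the main fit had 1204. In MA against M it gave 1626 lower, where the main fit had 1431. In MetSA 3 of the list were lower without MetSA replicate 1, MetSA replicate 2 or M replicate 1, the last with 725 lower over all genes. There 2 were higher without MetSA replicate 3, IA replicate 3 or M replicate 3. In MetSA 3 were higher without a filter or with the replicate block and 2 with DESeq2 or joint adjustment, and in IA 7 were higher with the replicate block, against 4 without it. Upper-quartile scaling gave 11 lower in IA and 10 lower in MetSA, where it also shifted the median over all genes downward (to -0.119 and -0.074). In MA 10 were lower without a filter on low counts or in the fit of the 2 groups, and 8 with the replicate block. In MetSA 3 were lower in the fit of the 2 groups.

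Itaconic and methylsuccinic acid, which differ by the double bond, were compared at the same dose and time, as were the other 2 pairs of acids. In IA against MetSA 1 of the 10 genes was called higher and 1 lower, where 3.97% and 2.15% of all genes were (6.12% in all), and 2 genes had values that did not overlap, against 25.8% of all genes. Keap1 was higher in IA by 0.33 on the log2 scale (SE 0.08, adjusted p = 0.0132), and Hmox1 was lower, at -0.31 (SE 0.09, adjusted p = 0.0447). With p-values adjusted over all 6 comparisons together these were 0.00279 and 0.0147. Without MetSA replicate 3 the Keap1 difference was 0.25 (adjusted p = 0.0583) and the Hmox1 difference -0.18 (adjusted p = 0.179), so neither was called, and the Keap1 call was also lost without IA replicate 2 (0.0587) or 3 (0.0539). The Hmox1 call was further lost in the fit of the 2 groups (0.098) and without any IA library, MA replicate 1 or 3, or M replicate 2 (highest adjusted p = 0.191).

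Hmox1 apart, the targets that fell under both acids showed no called difference between them. The IA against MetSA value was 0.11 for Txnrd1 (95% interval -0.06 to 0.29) and 0.06 for Gclc (-0.08 to 0.21). The intervals for Nfe2l2 (-0.17 to 0.08) and Osgin1 (-0.13 to 0.38) also held 0, as did the wide ones for Nqo1 (-0.38 to 0.66), Gclm (-0.10 to 0.61) and Slc7a11 (-0.40 to 0.79). Without MetSA replicate 3 the values were 0.23 for Txnrd1, 0.13 for Gclc, 0.01 for Nfe2l2, 0.18 for Osgin1 and 0.15 for Nqo1, and none of these was called. Srxn1 was at 0.27 (0.08 to 0.47, adjusted p = 0.0876). It was called with adjustment over all 6 comparisons (0.037), with DESeq2 (0.0328) and without a filter on low counts (0.00602). The fit without a filter also called Gclm (0.26, adjusted p = 0.0155). Without MetSA replicate 3, 3 genes were called higher in IA: Srxn1 (0.43, adjusted p = 0.000635), Gclm (0.46, adjusted p = 0.0404) and Slc7a11 (0.79, adjusted p = 0.0495). Which of the 10 genes were called between the acid with the double bond and the one without it thus changed with 1 library.

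Against malonic acid, itaconic acid gave 1 higher and 5 lower of the 10 genes, where 17.8% and 16.8% of all genes were called, and 8 genes did not overlap, against 49.6% of all genes. The median was -0.52 over the 10 and -0.03 over all genes. Keap1 was higher in IA by 0.94 (SE 0.08, adjusted p = 9.73e-09). Hmox1 was lower in IA, at -0.69 (adjusted p = 7.01e-06), Txnrd1 stood at -0.48 (adjusted p = 0.000169) and Gclc at -0.56 (adjusted p = 2.51e-06). Gclm at -0.63 (adjusted p = 0.0102) and Slc7a11 at -1.02 (adjusted p = 0.00724) were lower in IA as well, the genes that rose in MA against M. Nqo1 was at -0.57 (95% interval -1.08 to -0.06, adjusted p = 0.0767) and was called without IA replicate 2 (-0.88, adjusted p = 0.0131) or with upper-quartile scaling (adjusted p = 0.0419).

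Malonic acid against methylsuccinic acid gave the most calls, 7 of the 10 genes higher and 1 lower, where 11.6% and 14.7% of all genes were called, and 9 genes did not overlap, against 38.8% of all genes. The median was 0.49 over the 10 and 0.01 over all genes. Slc7a11 was higher in MA by 1.21 (SE 0.28, adjusted p = 0.00265), or 1.81 without MetSA replicate 3, and Gclm by 0.89 (SE 0.16, adjusted p = 0.00168), or 1.10 without it. Gclc (0.63), Txnrd1 (0.59), Srxn1 (0.39) and Hmox1 (0.38) were higher in MA at adjusted p of 7.99e-07, 2.02e-05, 0.00319 and 0.00328. Nqo1 was at 0.71 (adjusted p = 0.0358), a call lost without any MetSA library (0.0657 without replicate 3) or without MA replicate 1 (0.0917) or 3 (0.122). Keap1 was lower in MA, at -0.60 (adjusted p = 4.52e-06), and Nfe2l2 (-0.12, 95% interval -0.25 to 0.00) and Osgin1 (0.26, 0.01 to 0.51) were not called. Without MetSA replicate 3 the values were 0.69 for Gclc, 0.71 for Txnrd1, 0.56 for Srxn1, 0.51 for Hmox1 and -0.69 for Keap1, all called, and -0.06 for Nfe2l2 and 0.31 for Osgin1, not called. Each of the 3 pairs shares libraries with the others and with the comparisons against M.

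**Figure D5:**
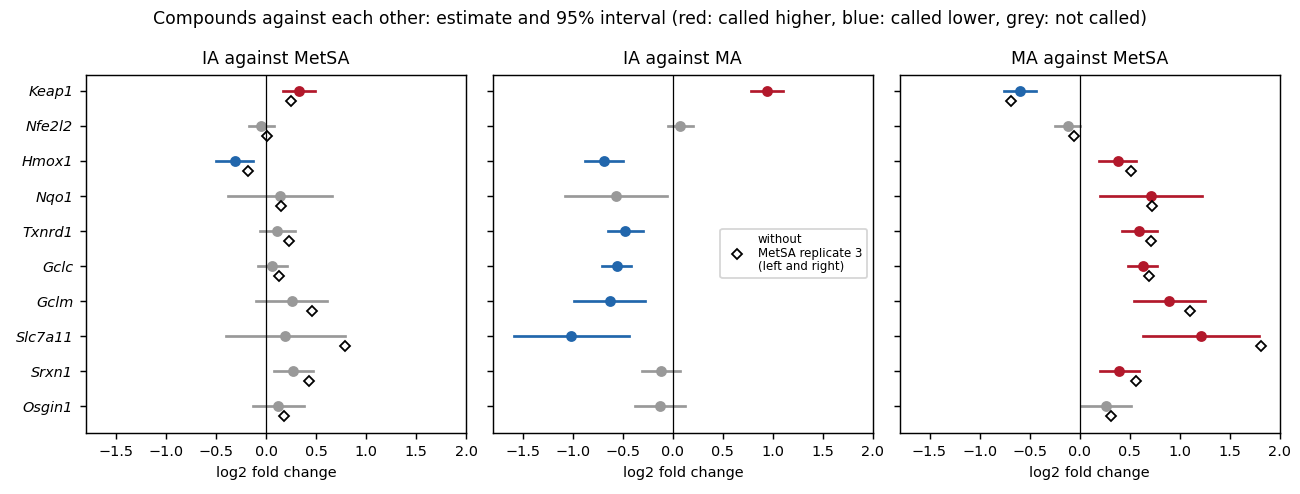
Estimated log2 fold change with its 95% interval for the 10 genes between pairs of acids, colored by call; open diamonds in the left and right panels leave out MetSA replicate 3. In MA against MetSA 7 genes are called higher, and in IA against MetSA the Keap1 estimate of 0.33 moves to 0.25 without that library.

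Across the 12 libraries, which share their groups and their M reference, the targets fell into sets that followed each other. Pearson's r of log2 CPM was 0.97 between Txnrd1 and Gclc and 0.87 between Hmox1 and each of them. Gclm followed Slc7a11 (0.87) and Srxn1 (0.84) more closely than Gclc (0.69). Keap1 ran opposite to Hmox1 (-0.95) and Gclc (-0.91). With the targets, Nfe2l2 ranged from -0.61 for Gclc, -0.54 for Txnrd1, -0.46 for Nqo1 and -0.40 for Hmox1 to 0.02 for Osgin1. The genes of the whole table most like Keap1 over the 12 libraries were Arel1 (0.994), Adar (0.993) and Golga3 (0.993), and those most like Hmox1 were Bri3bp (0.988), Pccb (0.987) and Ddb1 (0.985). For Slc7a11 they were Procr (0.948), Ak1 (0.938) and Soat1 (0.926), and for Gclm they were Nars2 (0.971), Parvb (0.944) and Cav2 (0.942). These values describe likeness over 12 libraries in 4 groups and carry no test.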

How the data were processed

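The values the authors deposited are raw counts of reads per gene. The submitters' processing notes name STAR, featureCounts and mm10; neither the annotation nor the settings, nor whether strand was used, is given there. Low counts leaned to even numbers (66.1% of counts from 1 to 9, and 50.9% of high ones), with 13032 values of 2 and 5652 of 1. Mates of a pair may thus have been counted singly, and halving the counts is among the alternatives. Symbols were matched by gene identifier for 32158 genes, and the 127 without a symbol held 0.0267% of counts. Coordinates and exon lengths are from GENCODE M21 (GRCm38), and promoters from RefSeq. Within each group every library differed from the others beyond counting noise (chi-square over its degrees of freedom, 9.6 to 59.7).

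Genes were kept by filterByExpr, which left 14113 genes with 99.98% of counts, and library sizes were scaled by TMM. edgeR 4.0.16 (R 4.3.3, limma 3.58.1) fitted the 4 group means to all 12 libraries, with robust quasi-likelihood dispersions, no covariate and 8 residual degrees of freedom. The procedure was run on simulated data with several random seeds. Its recovery of changes of 1 log2 unit met the bar set for it with some seeds and missed it with others. The simulation changed genes in IA only, far fewer than were called in IA against M in the data. Recovery of smaller changes is not given here. Calls use a Benjamini-Hochberg adjusted p under 0.05 over all genes tested. SE and 95% intervals come from that fit, and errors after ± are SDs. Log2 CPM for correlations used a prior count of 2. Groups came from the sample titles.

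The 10 genes, the lists and the tests were chosen with earlier results of these data known. All 10 are described. From each list the text names up to 4 called genes with the smallest adjusted p in each comparison with M, and in any case Bach1, Cul3, Maff, Mafg, Mafk, Nfe2l1, Sqstm1, Slc3a2 and Atf4. Most alike genes are the 3 tested genes with the highest correlation, predicted genes and pseudogenes skipped, for the 4 members with the largest range of group means. Alternatives were upper-quartile scaling, DESeq2 1.42.0, no filter, a filter of 1 CPM in 3 libraries, a fit of the 2 compared groups, the replicate number as a block, halved counts, adjustment over the 6 comparisons together, and leaving out each library. Repeating them for the list genes was added after the data were seen.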

Additional observations from a re-analysis of the deposited data

How the results depend on the processing

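The 60 log2 fold changes of the 10 genes were recomputed 1200 times in all, of which 1140 kept direction and side of the threshold, 23 changed sign, 17 became called and 20 lost their call. Of 26 called values 22 kept both in every repeat and 0 changed sign. Many repeats could change a value little or not at all. Joint adjustment reuses the same fold changes, halved counts keep their ratios, and many omissions drop a library of neither compared group. These numbers are therefore no measure of robustness. Sign changes touched uncalled values. They are listed next with those of the list genes Sqstm1, Maff, Mafk, Bach1 and Nfe2l1, which are not among the 23. In IA against M these were Gclm (-0.085 under upper-quartile scaling, -0.00499 with the stricter filter, -0.000700 with the replicate block, and -0.098 to 0.075 with single libraries left out), Srxn1 (-0.033 under upper-quartile scaling), Osgin1 (-0.027 under that scaling, -0.068 to 0.21) and Sqstm1 (-0.0805 under that scaling, -0.0021 with the stricter filter, -0.029 to 0.064). In MA against M, leaving out single libraries gave -0.065 to 0.021 for Keap1, -0.0025 to 0.045 for Nfe2l2, -0.075 to 0.023 for Hmox1, -0.076 to 0.043 for Txnrd1, -0.00095 to 0.062 for Gclc, -0.083 to 0.071 for Maff and -0.076 to 0.032 for Mafk. Bach1 there was at -0.0102 under upper-quartile scaling, -0.0012 with the stricter filter and -0.047 to 0.052, and Sqstm1 at 0.0062 in the fit of the 2 groups and -0.028 to 0.015. In MetSA against M, Slc7a11 ran from -0.39 to 0.49, and Nfe2l1 was at -0.0031 under upper-quartile scaling and -0.0016 to 0.13. In IA against MetSA the ranges were -0.099 to 0.012 for Nfe2l2, -0.16 to 0.29 for Nqo1, -0.085 to 0.79 for Slc7a11 and -0.0046 to 0.28 for Osgin1. In IA against MA, Osgin1 ran from -0.26 to 0.018 and Nfe2l2 was at -0.0016 under upper-quartile scaling. The number of the 10 genes called in IA against MetSA, 2, became 4 without a filter, 1 in the fit of the 2 groups, 1 with the replicate block and 0 to 3 with libraries left out, and the 2 called in MA against M became 1 to 3. The 864 genes called in IA against MetSA became 1348 with DESeq2, 1483 without a filter, 575 in the fit of the 2 groups, 1413 with the replicate block, 1571 with joint adjustment and 420 to 974 with libraries left out; the cause was not tested. Deviations from the group means correlated positively in all 18 same-number pairs of libraries (r from 0.0122 to 0.169), and 2 pairs were above 0.1. Deviations cancel within a group, so pairs of different number must lean negative where all same-number pairs are positive. The sample titles number the replicates WT1 to WT3 in every group but do not say what a number shares. Whether replicate numbers pair the libraries was not settled. The main fit has no such pairing, and the replicate block ended the Hmox1 call in IA against MetSA (adjusted p = 0.0719). Depth limits Nqo1 and Slc7a11, with at most 269 counts in a library.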

Other observations

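IA replicate 2 stood off from the other 2 IA libraries in several of these genes. It had 2.22 CPM of Nqo1, where IA replicates 1 and 3 had 1.3 and 1.31 CPM, 84.7 CPM of Gclm, where they had 66.9 and 71.8 CPM, and 11.3 CPM of Osgin1, where they had 17 and 15.3 CPM. It was chosen for mention after its values were seen.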
